A study of Arabidopsis thaliana with 4 samples.

Results

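Glutathione transferases of the tau and phi classes were followed in leaf explants of Arabidopsis thaliana at the moment of detachment and after 2 days of culture. The set held 38 genes, 27 of the tau class (GSTU) and 11 of the phi class (GSTF), taken by locus identifier from a table of 37686 genes, and all 38 were listed there. The tau gene GSTU15 and the phi genes GSTF4 and GSTF5 are not among these 38. Wild-type Col-0 seedlings, with no transgene or added compound named in the labels, were raised for 12 days at 22 °C under a day of 16 h light and 8 h dark. Leaves were detached with a piece of petiole, and the wounded end, which holds that piece and nearby tissue, was taken either before culture (time 0) or after 2 days on B5 medium with sucrose in darkness, with 2 libraries in each group. Time since cutting, darkness, medium and age differ together between the groups and cannot be told apart. Whether replicate libraries came from different plants is not stated in the labels, so each p-value measures only how these libraries scatter, which may be technical.

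Glutathione transferases join the tripeptide glutathione to reactive or foreign compounds, which makes them more soluble and marks them for transport into the vacuole, and some members instead carry or bind compounds or reduce peroxides. The tau and phi classes are the largest in flowering plants, and many of their genes respond to wounding, pathogens, oxidative stress, herbicide safeners and hormones. Several Arabidopsis members have been linked to the synthesis of sulphur-containing defence compounds, the glucosinolates and camalexin. Both classes are mainly soluble enzymes of the cytosol, and many of the genes lie side by side as tandem copies.

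Levels are given as TPM, transcripts scaled to a fixed total, that is a read count divided by transcript length and set to the same sum in each library, so that levels of different genes can be compared. Differences are 2 days minus time 0 of log2(TPM + 1), a scale on which changes of low genes look too small, with the standard error (SE) and the Benjamini-Hochberg adjusted p from limma, fitted to every gene whose 4 libraries averaged 1 TPM or more. Calls, higher or lower, are made where that p is below 0.05. TPM keeps no sequencing depth, so the depth is unknown and no counting interval is given. The leaf markers were present at time 0, and several changed in level. The summed level of 6 mesophyll and photosynthesis markers was 35544 and 33757 TPM at time 0 and 3028 and 3002 TPM at 2 days. The sums of 3 phloem markers (115 to 121 TPM over the 4 libraries) and 4 xylem markers (38.6 to 41.6 TPM) differed less, though the phloem marker RTM1 fell from 22.37 and 24.28 TPM to 11.34 and 12.18 TPM, and 3 guard cell markers went from 45.8 and 48.9 TPM to 18.6 and 18.1 TPM in sum. The sum of 3 epidermis markers (568 to 652 TPM) hides unlike members, since PDF1 went from 201.75 and 193.96 TPM to 2.63 and 1.28 TPM and KCS6 from 304.82 and 305.02 TPM to 624.01 and 611.3 TPM. Of 3 root tip markers, PLT1 and PLT2 were listed at 0 in all libraries, and WOX5 rose from 0 and 0.07 TPM to 1.54 and 3.26 TPM (limma adjusted p = 0.00403).

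After 2 days the tau and phi genes together held more of the transcript pool than at time 0. Their summed level rose from 2206 and 2226 TPM to 10215 and 9058 TPM, or from 0.221% and 0.223% of all TPM to 1.02% and 0.906%. Both classes were higher in sum in each 2-day library than in either time 0 library. The 27 tau genes summed to 620 ± 17.5 TPM at time 0 and 1859 ± 18.5 TPM at 2 days (SD, n = 2 libraries per group), and the 11 phi genes to 1596 ± 3.29 and 7778 ± 799 TPM. The exact two-sided permutation test over libraries gave p = 0.333 for each sum, the smallest value that 2 libraries against 2 allow. In these bulk samples a change in the number of cells of a type and a change of RNA per cell cannot be told apart. The fall of the mesophyll markers stands beside this rise in the same libraries, and its part in it was not tested.

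The phi class gained more in sum than the tau class, by 4.87-fold against 3-fold. Tau genes made up 27.5% and 28.4% of the summed tau and phi level at time 0 and 18.3% and 20.4% at 2 days. The log2 ratio of summed tau to summed phi level went from -1.36 ± 0.0438 to -2.06 ± 0.134 (SD, n = 2), a change of -0.70 (exact permutation p = 0.333, the smallest possible). The size of this contrast changed with the abundant genes that were summed. Without the member of each class with the highest mean over all 4 libraries, GSTU19 and GSTF9, the change was 0.02 (exact permutation p = 1.0). The log2 fold was then 1.85 for both sums. GSTF9 holds that place through its level at 2 days. At time 0 its mean (349 TPM) was below those of GSTF8 (461 TPM) and GSTF10 (458 TPM). Its omission thus takes away part of the phi rise by the way it was chosen. Without GSTF9 alone, an alternative chosen after seeing the data, the change in the log2 ratio was -0.25. Without GSTF8 alone, likewise chosen, it was -1.17.

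**Figure D1:**
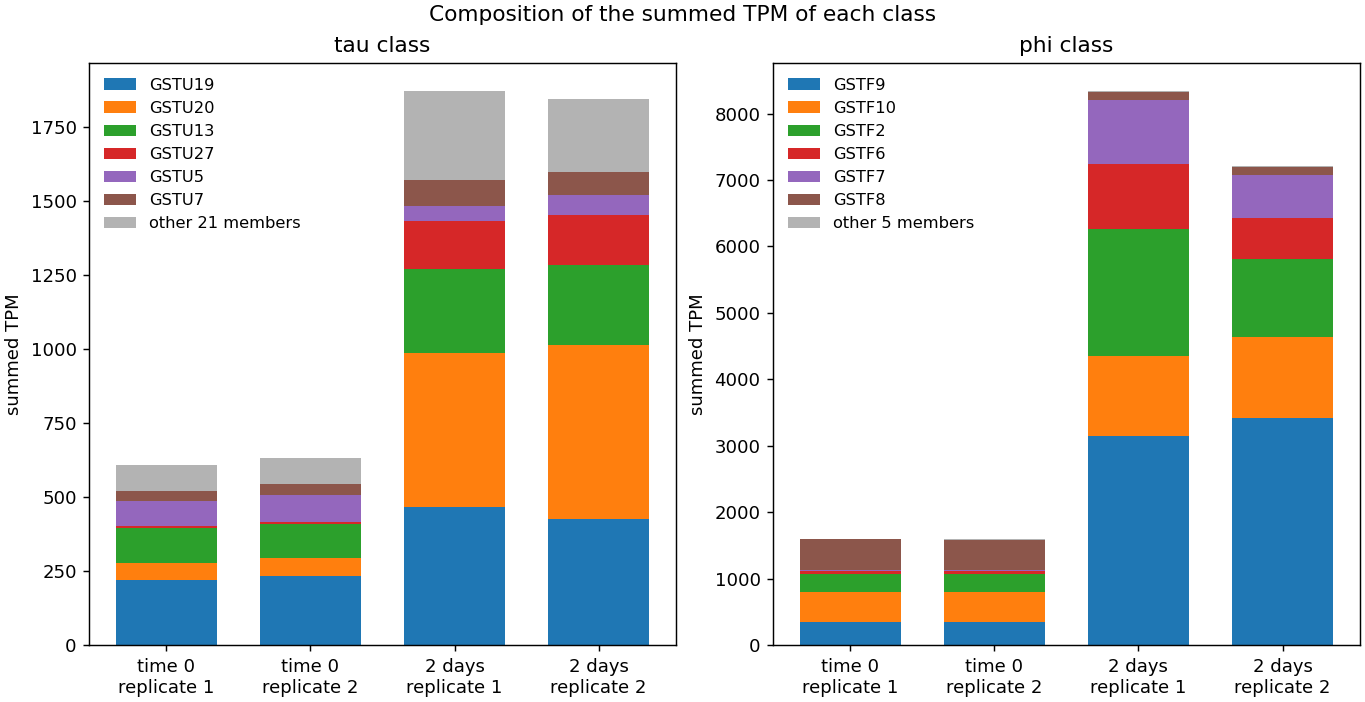
Stacked bars give the summed TPM of the tau class (left) and the phi class (right) in each of the 4 libraries, split into the 6 members shown by name and all others, and the vertical scales differ between the panels. GSTF9 and GSTU20 fill a larger part of their bars at 2 days, while GSTF8 fills 29.3% and 28.5% of the phi bar at time 0 and 1.46% and 1.65% at 2 days.

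Of the 38 genes, 30 passed the limit of a mean of 1 TPM, 23 tau and 7 phi. Among these 30, 24 were called higher and 5 lower and 1 was not called, where 39.2% of all 19078 tested genes were called higher and 29.5% lower. The tau class had 18 higher, 4 lower and 1 not called (median log2 difference 2.15), and the phi class 6 higher and 1 lower (median 2.50), beside a median of 0.09 over all tested genes. Leaving out a library moved the count of lower members from 5 to 3, all in the tau class (from 4 to 2), without time 0 replicate 1, time 0 replicate 2 or 2-day replicate 2. The groups did not overlap in any of the 30, which holds for 86.0% of all tested genes. The limit favours genes that rose, since 7 of the 23 tau members had a mean below 1 TPM at time 0 and passed through their level at 2 days, and no phi member did. Among members that already averaged 1 TPM or more at time 0, 12 of 16 tau genes were higher and 4 lower (median 1.59), and 6 of 7 phi genes higher and 1 lower (median 2.50). The same bound left 17994 of all genes, with 6561 higher, 5636 lower and a median of 0.04.

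Changes of at least 1 on the log2 scale with groups that did not overlap were found in 22 of the higher members and 3 of the lower ones. Over all tested genes 15.6% met this rule upwards and 10.4% downwards. Differences ran from -1.60 to 4.53 in the tau class and from -1.93 to 5.67 in the phi class. Quantile normalization moved the median of all genes by -0.15 and the share of calls that were higher from 57.05% to 47.05% (6385 higher, 7187 lower), and rescaling to the genes left after dropping those of organelles and the 100 with the highest levels moved it by -0.11. No tested member changed direction under either scaling.

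The phi class was dominated by a handful of abundant genes at both times. GSTF9 (AT2G30860), which has been linked to glucosinolate synthesis, stood at 350.68 and 347.43 TPM before culture and at 3148.32 and 3420.16 TPM at 2 days. It rose by 3.23 ± 0.07 (SE) on the log2 scale (limma adjusted p = 8.06e-06), and its mean went from rank 375 to rank 14 among all genes of the table. Its neighbour GSTF10 (AT2G30870), which is known to interact with the receptor kinase BAK1, went from 455.92 and 459.88 TPM to 1201.88 and 1220.33 TPM (log2 difference 1.40 ± 0.05 SE, limma adjusted p = 2.36e-05). At time 0 GSTF10 was the more abundant of this adjacent pair, and at 2 days GSTF9 was. The coding sequences of the pair are 77.6% identical and share no window of 50 bases.

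GSTF2 (AT4G02520), which binds camalexin and other indole compounds in vitro, stood at 260.8 and 264.76 TPM before culture and at 1911.72 and 1169.9 TPM at 2 days (log2 difference 2.50 ± 0.23 SE, limma adjusted p = 0.000415). Both 2-day libraries lay far above time 0, but they differed from each other by 1.63-fold. Of its 50-base windows, 50.6% overlap AT4G02510 on the opposite strand, a gene at 76.9 TPM on average at time 0 and 54.7 TPM at 2 days. The strand setting of the counting is not given in the sources used here, so reads of these genes may not be told apart. Its close copy GSTF3 (AT2G02930), with 94.5% identical coding sequence, stayed at 0.14 and 0.22 TPM and then 2.2 and 0.85 TPM and was not tested.

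GSTF6 (AT1G02930), which has been linked to camalexin synthesis, and GSTF7 (AT1G02920), a pathogen-responsive gene, are adjacent and 94.3% identical in coding sequence. GSTF6 was at 43.13 and 47.23 TPM before culture and at 972.38 and 618.82 TPM at 2 days (log2 difference 4.07 ± 0.21 SE, limma adjusted p = 6.47e-05). GSTF7 was at 14.75 and 14.24 TPM and rose to 969.83 and 644.37 TPM (log2 difference 5.67 ± 0.19 SE, limma adjusted p = 1.9e-05). The pair thus differed at time 0 and reached like levels at 2 days, with replicate 1 above replicate 2 for both. They share 9% and 9.2% of their 50-base windows, and reads from those windows had to be divided between them. Their sum, which does not depend on that division, rose 26.9-fold, from 57.9 and 61.5 TPM to 1942 and 1263 TPM. The 120-base stretch without gaps in which the coding sequences differ most is shown (bases 147 to 266 of each, RefSeq annotation of TAIR10.1). The 13 bases that differ are in capitals. The search for this stretch left out the untranslated parts of the transcripts, which the 50-base windows include, so reads may tell the pair apart better elsewhere.
GSTF6: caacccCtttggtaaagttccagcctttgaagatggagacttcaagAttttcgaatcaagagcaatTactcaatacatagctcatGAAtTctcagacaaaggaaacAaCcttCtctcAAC
GSTF7: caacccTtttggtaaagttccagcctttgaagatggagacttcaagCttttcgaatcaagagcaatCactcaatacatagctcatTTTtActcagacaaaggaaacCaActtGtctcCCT

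GSTF8 (AT2G47730) was the one phi member that fell. It encodes a stress-inducible enzyme with a form that is targeted to the chloroplast. Its level was 467.8 and 454.23 TPM at time 0, the highest mean of the class, and 122.18 and 118.65 TPM at 2 days (log2 difference -1.93 ± 0.05 SE, limma adjusted p = 1.14e-05), 3.83-fold lower. The mesophyll and photosynthesis markers fell in the same libraries, and their part in this fall was not tested. The locus AT2G47720, which shares 5.3% of its windows, was listed at 0 in all 4 libraries.

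GSTF11 (AT3G03190), which has been linked to aliphatic glucosinolate synthesis, stood at 5.08 and 5.55 TPM before culture and at 12.51 and 19.08 TPM at 2 days (log2 difference 1.38 ± 0.20 SE, limma adjusted p = 0.00217). Of its windows 89.3% overlap AT3G03200 on the opposite strand, a gene at 1.35 and 1.36 TPM on average. The other 4 phi genes were not tested. GSTF12 (AT5G17220), needed for anthocyanin transport to the vacuole, did not exceed 0.27 TPM in any library, and GSTF13 (AT3G62760) did not exceed 0.05 TPM. GSTF14 (AT1G49860) stood at 0.06 and 0 TPM before culture and at 1.54 and 0.18 TPM at 2 days.

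**Figure D2:**
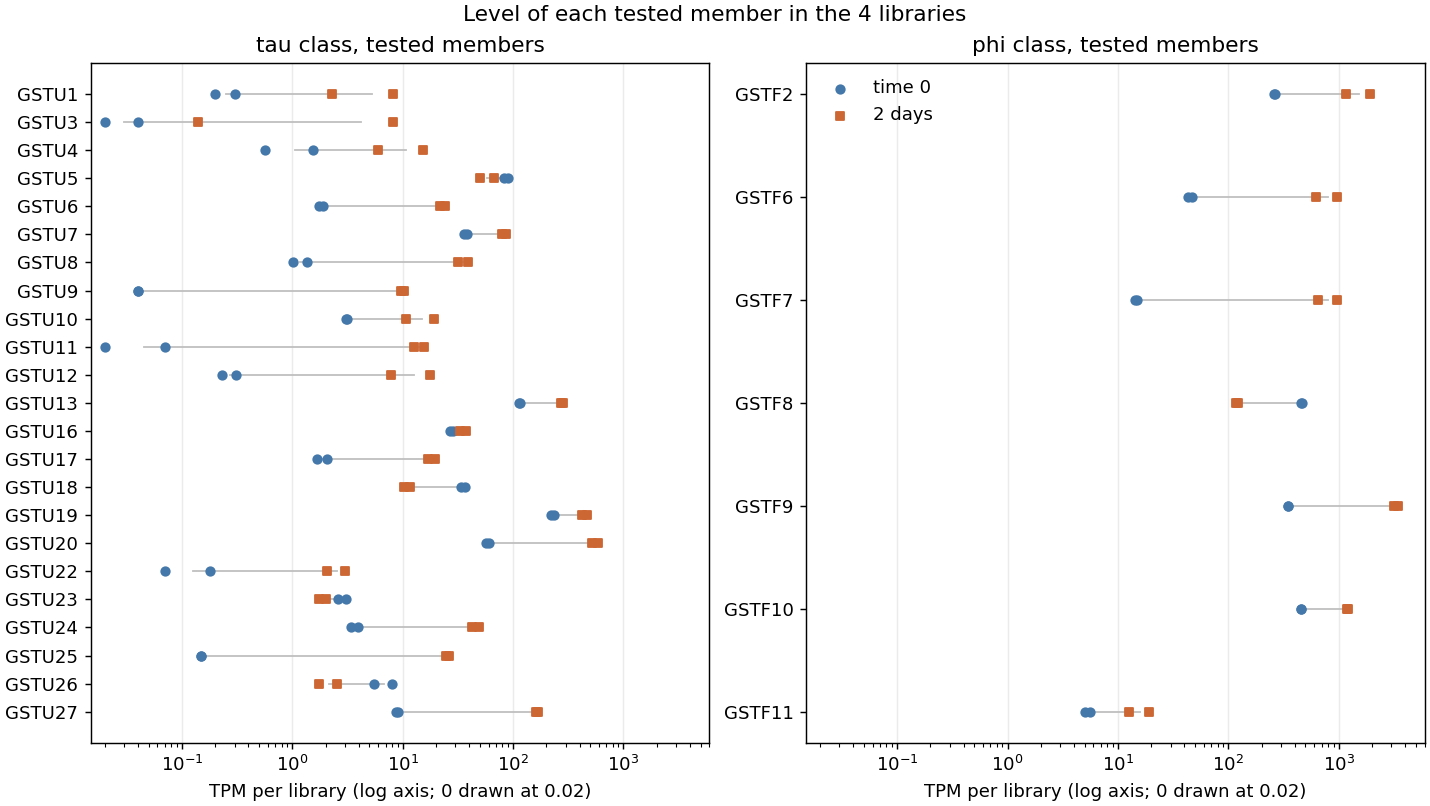
Each row is a tested member, with circles for the 2 time 0 libraries and squares for the 2 libraries of 2 days on a log axis of TPM, where a value of 0 is drawn at 0.02. No member's circles and squares overlap in range, and the highest levels at both times are those of phi genes.

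In the tau class GSTU19 and GSTU20, neighbours in an array of 5 genes with 76.2% identical coding sequence, were the most abundant members at 2 days. GSTU19 (AT1G78380), known for its induction by herbicide safeners, went from 221.17 and 234.17 TPM to 465.12 and 425.12 TPM (log2 difference 0.96 ± 0.07 SE, limma adjusted p = 0.000166). GSTU20 (AT1G78370), whose product is known to interact with the jasmonate-conjugating enzyme JAR1, went from 57.02 and 61.13 TPM to 521.4 and 587.78 TPM (log2 difference 3.21 ± 0.08 SE, limma adjusted p = 1.09e-05). GSTU20 rose more, so that it passed GSTU19 in both 2-day libraries. The other members of the array were low. GSTU22 (AT1G78340) was at 0.07 and 0.18 TPM before culture and at 3 and 2.08 TPM at 2 days (log2 difference 1.64 ± 0.19 SE, limma adjusted p = 0.00106), and GSTU21 (AT1G78360) was listed at 0 in all libraries. GSTU23 (AT1G78320), at 3.06 and 2.59 TPM and then 1.73 and 2 TPM, was called lower (log2 difference -0.42, limma adjusted p = 0.0423), a call that was lost under 6 of its 11 alternatives (adjusted p 0.00994 to 0.207), among them each omission of 1 library.

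GSTU13 (AT1G27130), which acts in indole glucosinolate metabolism during defence, was the second most abundant tau gene at time 0. It rose from 115.81 and 112.61 TPM to 284.12 and 270.49 TPM (log2 difference 1.27 ± 0.05 SE, limma adjusted p = 3.31e-05). Its copy GSTU14 (AT1G27140), 81.6% identical, did not exceed 0.08 TPM in any library. GSTU27 (AT3G43800), which lies outside the arrays, went from 8.77 and 9.11 TPM to 163.06 and 168.72 TPM (log2 difference 4.07 ± 0.06 SE, limma adjusted p = 4.9e-06). Replicate 1 stood at 0.963 of replicate 2 at time 0 and at 0.966 at 2 days, and its part of the tau sum went from 1.44% to 8.71% and 9.14%. GSTU8 (AT3G09270) rose from 1.01 and 1.35 TPM to 39.31 and 31.49 TPM (log2 difference 4.06 ± 0.14 SE, limma adjusted p = 2.17e-05).

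GSTU24, GSTU25 and GSTU26 form an array on chromosome 1, in which GSTU24 and GSTU25, known for the detoxification of the explosive TNT, rose and GSTU26 fell. GSTU25 (AT1G17180) rose from 0.15 TPM in both time 0 libraries to 26.37 and 24.85 TPM (log2 difference 4.53 ± 0.10 SE, limma adjusted p = 8.93e-06). GSTU24 (AT1G17170) went from 3.9 and 3.43 TPM to 49.05 and 42.44 TPM (log2 difference 3.32 ± 0.10 SE, limma adjusted p = 1.56e-05). GSTU26 (AT1G17190) went from 5.53 and 8.03 TPM to 2.55 and 1.73 TPM (log2 difference -1.30 ± 0.21 SE, limma adjusted p = 0.00366). GSTU24 and GSTU25 are 79.4% identical in coding sequence, and GSTU26 is 70.3% and 70.4% identical to them. Leaving out 2-day replicate 2 ended the call of GSTU26 (log2 difference -1.11, adjusted p = 0.0502), and its other alternatives reached down to 0.00149.

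GSTU17 and GSTU18 are adjacent, 81.6% identical in coding sequence, and moved in opposite directions. GSTU17 (AT1G10370), known from dehydration responses and light signalling, rose from 2.05 and 1.69 TPM to 16.82 and 19.54 TPM (log2 difference 2.74 ± 0.12 SE, limma adjusted p = 3.82e-05). GSTU18 (AT1G10360) fell from 36.74 and 33.5 TPM to 10.29 and 11.54 TPM (log2 difference -1.60 ± 0.09 SE, limma adjusted p = 7.25e-05). The more abundant gene of the pair was GSTU18 in both time 0 libraries and GSTU17 in both 2-day libraries. Their sum moved little, from 38.8 and 35.2 TPM to 27.1 and 31.1 TPM. They share 2% and 2.3% of their 50-base windows. The stretch of bases 479 to 598 of the coding sequences is the 120 bases in which they differ most, with the 30 differing bases in capitals.
GSTU17: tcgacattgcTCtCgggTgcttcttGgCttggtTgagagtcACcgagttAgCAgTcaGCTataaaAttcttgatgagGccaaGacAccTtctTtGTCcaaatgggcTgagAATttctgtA
GSTU18: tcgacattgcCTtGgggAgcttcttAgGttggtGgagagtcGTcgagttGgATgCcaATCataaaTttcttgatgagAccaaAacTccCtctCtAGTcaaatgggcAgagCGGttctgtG

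The 250 bases before the annotated start of each gene are printed for this pair because their levels moved apart. They were read from the TAIR10.1 genome with its RefSeq annotation, 5′ to 3′ on the strand of the gene, which is the minus strand of chromosome 1. Capitals mark CACGTG, the core of the G-box that light and abscisic acid signalling factors bind. It occurs once in each, at -106 to -101 in GSTU17 and at -84 to -79 in GSTU18, counted from the start with -1 as the last base before it. Among the 27 tau genes these are the 2 with this word in that window (7.41%), and GSTF6 is the 1 phi gene (9.09%). The share over 27443 protein-coding genes was 6.49%. In a window of 500 bases 4 tau genes (14.8%) held CACGTG, GSTU9 and GSTU20 among them, and 2 phi genes (18.2%), beside 9.35% of all.
GSTU17: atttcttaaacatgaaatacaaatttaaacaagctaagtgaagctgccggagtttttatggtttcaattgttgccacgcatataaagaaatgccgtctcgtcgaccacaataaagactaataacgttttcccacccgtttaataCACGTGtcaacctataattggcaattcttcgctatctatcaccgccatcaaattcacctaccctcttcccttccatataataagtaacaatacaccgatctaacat
GSTU18: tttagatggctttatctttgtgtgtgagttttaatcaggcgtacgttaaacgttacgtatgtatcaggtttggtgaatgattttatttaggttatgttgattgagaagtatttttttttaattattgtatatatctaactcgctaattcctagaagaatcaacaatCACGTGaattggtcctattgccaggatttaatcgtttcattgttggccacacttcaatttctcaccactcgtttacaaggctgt

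GSTU1 to GSTU7 form the longest array, on chromosome 2, and its members differed in level and in direction. GSTU5 (AT2G29450) was its most abundant gene at time 0 and went from 82.46 and 89.78 TPM to 50.14 and 66.68 TPM (log2 difference -0.57 ± 0.14 SE, limma adjusted p = 0.017). Leaving out time 0 replicate 1 (log2 difference -0.63, adjusted p = 0.0609) or time 0 replicate 2 (log2 difference -0.50, adjusted p = 0.0998) ended this call with the size little changed, in a span of 0.00368 to 0.0998. With 1 library left out, the lone library of its group is assumed to vary like the other group. GSTU6 (AT2G29440), 83.1% identical to GSTU5 in coding sequence, rose from 1.74 and 1.9 TPM to 21.97 and 24.27 TPM (log2 difference 3.10 ± 0.10 SE, limma adjusted p = 1.55e-05). The gene at the end of the array, GSTU7 (AT2G29420), rose from 36.26 and 38.19 TPM to 86.76 and 79.22 TPM (log2 difference 1.13 ± 0.07 SE, limma adjusted p = 9.9e-05). Of the GSTU7 windows 55.7% overlap genes on the opposite strand, of which AT2G08340 stood at 5.62 TPM on average at time 0 and 11.1 TPM at 2 days.

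The other 4 genes of this array, GSTU1 to GSTU4, were near 0 at time 0 and uneven at 2 days. GSTU4 (AT2G29460) stood at 0.57 and 1.54 TPM and then at 15.4 and 5.97 TPM (log2 difference 2.42 ± 0.46 SE, limma adjusted p = 0.00615). GSTU1 (AT2G29490) stood at 0.2 and 0.3 TPM and then at 8.24 and 2.31 TPM (log2 difference 2.15 ± 0.48 SE, limma adjusted p = 0.0118), and leaving out time 0 replicate 1 (log2 difference 2.09, adjusted p = 0.0647) or time 0 replicate 2 (log2 difference 2.20, adjusted p = 0.0565) ended the call, in a span of 0.00196 to 0.0647. GSTU3 (AT2G29470) stood at 0 and 0.04 TPM and then at 8.2 and 0.14 TPM, and it was the only tested member that was not called (log2 difference 1.67 ± 0.96 SE, limma adjusted p = 0.178). It passed the limit only through 2-day replicate 1. Without 2-day replicate 2 its log2 difference was 3.17 (adjusted p = 0.00152), a value that takes the spread of the lone 2-day library from the time 0 pair, and without 2-day replicate 1 it was 0.16 (adjusted p = 0.0878). GSTU2 (AT2G29480), at 0 and 0.08 TPM and then 1.56 and 0.36 TPM, was below the limit. All 4 were higher in 2-day replicate 1 than in replicate 2, by 3.57-fold for GSTU1, 4.33-fold for GSTU2, 58.6-fold for GSTU3 and 2.58-fold for GSTU4, while GSTU5 and GSTU6 were not (0.752-fold and 0.905-fold) and GSTU7 was at 1.1-fold. GSTU1, GSTU2 and GSTU4 are 83.6% to 85.5% identical in coding sequence and share no window of 50 bases.

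**Figure D3:**
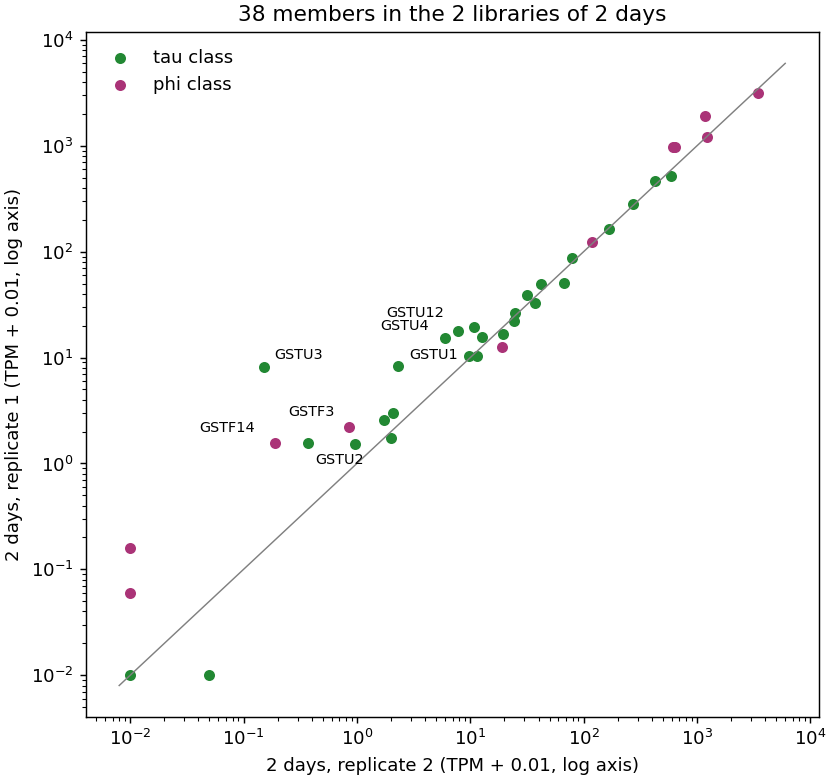
Each point is one of the 38 members, with its level in 2-day replicate 2 on the horizontal axis and in 2-day replicate 1 on the vertical axis, both as TPM + 0.01 on log axes, and the line marks equal levels. GSTU1 to GSTU4 lie above the line, GSTU3 farthest from it at 8.2 against 0.14 TPM, and GSTF2, GSTF6 and GSTF7, among the most abundant members, also lie above it, by 1.63-fold, 1.57-fold and 1.51-fold.

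Most tested members differed less than 2-fold between the 2-day libraries, and the share that reached 2-fold rests in part on the limit of 1 TPM. A difference of at least 2-fold between the 2-day libraries on the log2(TPM + 1) scale was found in 4 of 30 tested members (13.3%), which were GSTU1, GSTU3, GSTU4 and GSTU12 and were identified after their values were seen, and in 1.54% of all tested genes. Between the time 0 libraries it was found in 0 of 30 members and in 0.765% of all genes. Of the 4 members, GSTU1, GSTU3 and GSTU12 passed the limit only through their level at 2 days, GSTU3 through replicate 1 alone. A mean below 1 TPM at time 0 was found in 7 of the 30 members and in 1084 of all 19078 tested genes. The shares of members and of all genes thus do not compare evenly. Replicate 1 was above replicate 2 at 2 days in 63.3% of the tested members and 59.6% of all tested genes.

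GSTU11 and GSTU12, adjacent on chromosome 1 but 58.4% identical in coding sequence, were near 0 at time 0 and rose together. GSTU11 (AT1G69930) stood at 0 and 0.07 TPM and then at 15.46 and 12.64 TPM (log2 difference 3.86 ± 0.14 SE, limma adjusted p = 2.34e-05). GSTU12 (AT1G69920) stood at 0.31 and 0.23 TPM and then at 17.64 and 7.81 TPM (log2 difference 3.34 ± 0.36 SE, limma adjusted p = 0.000741). A like pattern of near absence at time 0 was seen in GSTU9 (AT5G62480), which lies outside the arrays and went from 0.04 TPM in both libraries to 10.3 and 9.64 TPM (log2 difference 3.40 ± 0.12 SE, limma adjusted p = 2.11e-05). These 3 genes, with GSTU1, GSTU3, GSTU22 and GSTU25, are the 7 that passed the limit only through their level at 2 days.

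Of the remaining tau genes, GSTU10 (AT1G74590) rose from 3.13 and 3.09 TPM to 19.23 and 10.83 TPM (log2 difference 1.91 ± 0.26 SE, limma adjusted p = 0.00172). GSTU16 (AT1G59700) stood at 26.88 and 28.31 TPM and then at 32.76 and 37.23 TPM, a small rise (log2 difference 0.33 ± 0.08 SE, limma adjusted p = 0.0166). Its call was lost under 5 of 12 alternatives (adjusted p 0.0133 to 0.113), among them both other scalings (0.0563 and 0.0649) and the omission of time 0 replicate 1 (0.113), time 0 replicate 2 (0.0687) or 2-day replicate 2 (0.0503). GSTU28 (AT1G53680) lay just below the limit, with 0.7 and 0.81 TPM at time 0 and 1.53 and 0.95 TPM at 2 days, and the tested member nearest above it was GSTU22.

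The 8 tandem arrays held 25 of the 38 genes, and calls within an array were in 1 direction in some and in both directions in others. An array was taken as neighbouring members with at most 3 other protein-coding genes between them in the RefSeq annotation. In 4 of them, GSTU17 and GSTU18, GSTU24 to GSTU26, GSTU19 to GSTU23 and GSTU1 to GSTU7, at least 1 member was called higher and 1 lower, though the lower calls of GSTU23 and GSTU5 were lost when a time 0 library was left out and that of GSTU26 when 2-day replicate 2 was. Both phi arrays and the pair GSTU11 and GSTU12 had only members called higher. Summed over its members, the array of GSTU1 to GSTU7 rose 1.47-fold, from 121 and 132 TPM to 192 and 179 TPM, and that of GSTU19 to GSTU23 rose 3.47-fold, from 281 and 298 TPM to 991 and 1017 TPM. The sum of GSTU17 and GSTU18 fell, to 0.787-fold. The groups did not overlap for any of the 8 array sums (exact permutation p = 0.333 for each, the smallest possible), which also holds for 86.0% of all tested genes.

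**Figure D4:**
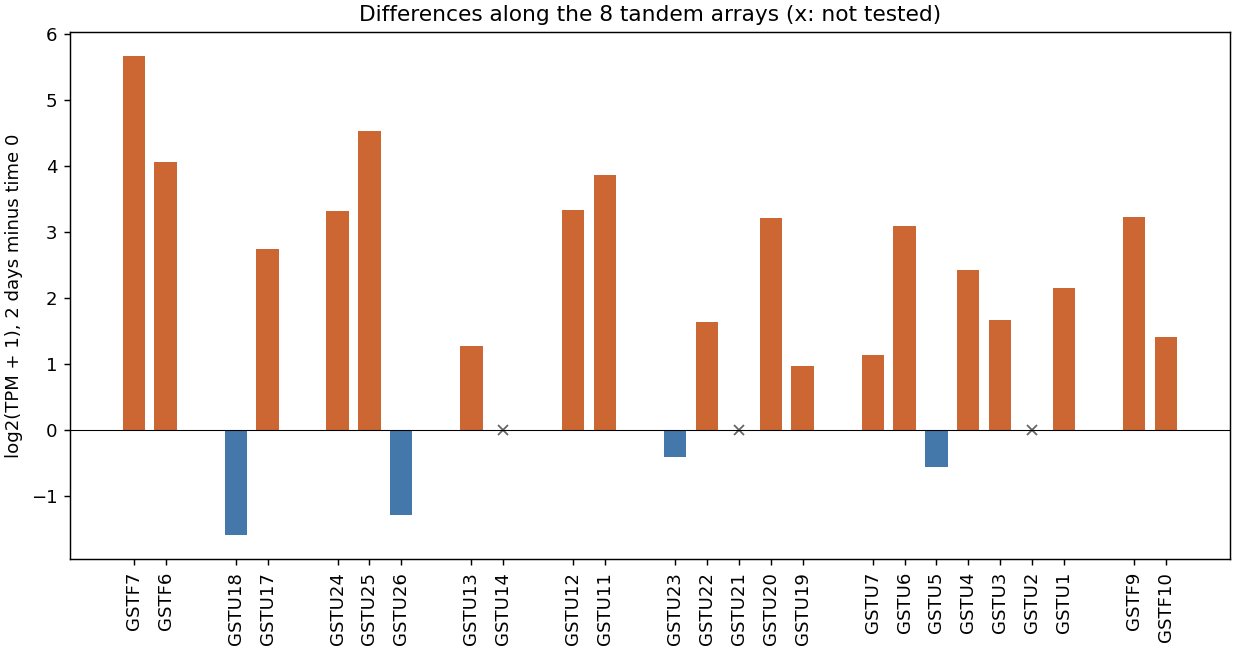
Bars give the log2(TPM + 1) difference of each member, 2 days minus time 0, in its order along the chromosome within the 8 tandem arrays, with crosses for members that were not tested. Arrays with bars on both sides of 0 are GSTU18 and GSTU17, GSTU24 to GSTU26, GSTU23 to GSTU19 and GSTU7 to GSTU1.

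Gene structure, coding sequence and the words before the start sites did not enter the choice of genes. All 27 tau genes have 2 coding exons, and 10 of 11 phi genes have 3. Coding sequences were 57.3% identical in the median of 351 tau pairs, 55.3% in 55 phi pairs and 50.8% in 297 pairs between the classes. TGACG, the core of the as-1 element that TGA factors bind in many stress-inducible transferase genes, was searched on both strands in the 250 bases before each start. It was found in 11 of 27 tau genes (40.7%) and 3 of 11 phi genes (27.3%), beside 18.6% of 27443 protein-coding genes. The W-box words TTGACC and TTGACT, bound by WRKY factors and distinct from TGACG in their last base, were found in 15 tau genes (55.6%) and 6 phi genes (54.5%), beside 28.4% of all. The auxin response word TGTCTC was found in 1 tau gene (3.7%), GSTU10, and in 0 phi genes, beside 10.9% of all. In a window of 500 bases TGTCTC was found in 5 tau genes (18.5%) and 0 phi genes, beside 21.3% of all. The W-box words were found there in 17 tau genes (63%) and 9 phi genes (81.8%), beside 45.2% of all.

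TGACG stood before 10 of the 24 members called higher, 2 of the 5 called lower, the 1 not called and 1 of the 8 not tested. Of those 10, GSTU1, GSTU9, GSTU11, GSTU22 and GSTU25 passed the limit of 1 TPM only through their level at 2 days. The split into higher and not tested thus rests in part on the rise itself. In a window of 500 bases, where 32% of all protein-coding genes hold TGACG, it stood before 13 of the 24 and 3 of the 5. Of the phi genes called higher, GSTF10 held it in the shorter window, and GSTF2, GSTF6, GSTF7, GSTF9 and GSTF11 did not. GSTF8, which fell, held it too. The W-box words stood within 250 bases before 13 of the 24 called higher, 2 of the 5 called lower, the 1 not called and 5 of the 8 not tested. These matches describe letters in a window and no binding was measured.

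An as-1 element holds a pair of TGACG words. TGACG followed by 7 bases of any kind and a further TGACG, on either strand, was found before 17 of 27443 protein-coding genes (0.0619%), and 2 of those are GSTU1 and GSTU7, the outer genes of the array on chromosome 2. Both windows are printed for that reason, as 250 bases 5′ to 3′ on the strand of the gene (minus strand of chromosome 2, TAIR10.1), with every TGACG of either strand in capitals. The pair lies at -77 to -61 in GSTU1 and at -61 to -45 in GSTU7, on the opposite strand in the latter, where a further TGACG overlaps it. Both genes were called higher, but their levels differed, with means of 5.28 TPM for GSTU1 and 83 TPM for GSTU7 at 2 days.
GSTU1: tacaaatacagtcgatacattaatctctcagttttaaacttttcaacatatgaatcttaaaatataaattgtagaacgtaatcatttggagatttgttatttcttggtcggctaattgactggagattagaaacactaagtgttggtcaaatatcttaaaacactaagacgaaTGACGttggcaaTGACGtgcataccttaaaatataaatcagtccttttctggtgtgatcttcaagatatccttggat
GSTU7: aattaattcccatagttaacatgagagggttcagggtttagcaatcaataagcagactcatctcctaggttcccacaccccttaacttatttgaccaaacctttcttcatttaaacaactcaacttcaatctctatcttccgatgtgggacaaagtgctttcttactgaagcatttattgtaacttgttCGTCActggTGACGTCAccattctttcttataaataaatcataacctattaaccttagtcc

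Of 33 tested genes that make, reduce, carry or otherwise use glutathione or respond to foreign compounds, 19 were higher and 7 lower (median log2 difference 0.48), beside 39.2% higher and 29.5% lower over all tested genes, by lists of loci taken from general knowledge. Of 4 tested genes of glutathione synthesis and reduction, 3 were higher and 1 lower (median log2 difference 0.78). The glutathione reductase gene GR1 (AT3G24170) rose from 22.72 and 21.97 TPM to 134.3 and 148.96 TPM (log2 difference 2.61 ± 0.07 SE, limma adjusted p = 1.14e-05), and the plastid and mitochondrial reductase gene AT3G54660 fell from 82.34 and 81.95 TPM to 61.55 and 60.88 TPM (log2 difference -0.42, limma adjusted p = 0.00102). Of 7 tested genes of conjugate transport and breakdown, 5 were higher, 1 lower and 1 not called (median 1.74). The vacuolar conjugate transporter gene ABCC3 (AT3G13080) rose from 4.23 and 4.8 TPM to 22.42 and 21.61 TPM (log2 difference 2.06 ± 0.09 SE, limma adjusted p = 3.5e-05), and CAD1 (AT5G44070), which encodes phytochelatin synthase, fell from 111.6 and 116.4 TPM to 53.52 and 52.71 TPM (log2 difference -1.09 ± 0.05 SE, limma adjusted p = 4.99e-05).

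Of 12 tested genes in other classes of glutathione transferase, 7 were higher, 4 lower and 1 not called (median log2 difference 0.57), where 39.2% of all tested genes were higher and 29.5% lower. The lambda gene GSTL1 (AT5G02780) was listed at 0 in each library before culture, against 14.51 and 8.85 TPM after it (limma adjusted p = 0.000128). DHAR3 (AT5G16710), a plastid dehydroascorbate reductase, fell from 167.33 and 174.22 TPM to 62.3 and 56.59 TPM (log2 difference -1.51 ± 0.07 SE, limma adjusted p = 3.82e-05). Class II TGA factors and xenobiotic response genes had 4 of 10 tested genes higher, 1 lower and 5 not called (median 0.19), a share of higher calls near that of all genes. UGT73B4 (AT2G15490), a glucosyltransferase, rose from 0.73 and 0.5 TPM to 15.89 and 4.09 TPM (log2 difference 2.53 ± 0.56 SE, limma adjusted p = 0.0111), and CYP81D8 (AT4G37370), a cytochrome P450, fell from 34.7 and 33.56 TPM to 19.26 and 8.72 TPM (log2 difference -1.32 ± 0.34 SE, limma adjusted p = 0.0184).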

How the data were processed

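RNA was sequenced from 4 libraries, 2 at time 0 and 2 after 2 days of culture, grouped by the sample titles. The authors deposited TPM per gene. The submitters' processing notes list the genome build TAIR10 and the tools RSEM 1.3.2, STAR 2.7.2b and Trim Galore 0.5.0. For the annotation, the strand setting and any filter, the answer is not given in the sources used here. RSEM divides reads that match several genes, so near-identical copies depend on that division. Each column sums to 1000000 within rounding, TPM keeps no depth, and no count test or interval was applied.

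Log2(TPM + 1) was fitted by limma 3.58.1 (R 4.3.3, variance trended on the mean) for the 19078 genes that averaged 1 TPM or more, and p-values were adjusted over all of them by the Benjamini-Hochberg method. Class and array sums were compared by exact permutation tests over libraries. The fit was also run on simulated data in which few genes changed and all genes shared a fixed setting of spread. That setting differs from these data, where most tested genes were called, so the run does not measure the error of the calls here. The 38 members, the gene lists, the promoter words and the rule for named genes (full statistics for called members past 1 in log2 difference without overlap, and for the most abundant of each class) were chosen with earlier results of these data known. Other tested members were also given their full values.

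Symbols (38 of 38 members paired), gene models, shared 50-base windows, coding identity and sequences came from the RefSeq annotation of TAIR10.1, read with Python 3.11.15 and Biopython 1.88. That assembly is a later release than the TAIR10 named by the authors, so no genome coordinates are given. Figures were drawn with matplotlib 3.10.9. Alternatives were other pseudocounts, filters and scalings, no trend, a replicate block, the omission of each library and of single members.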

Additional observations from a re-analysis of the deposited data

How the results depend on the processing

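Over 12 alternatives for the 30 tested members, 338 of 355 values kept their direction and their side of the threshold, 16 lost the call, 1 gained it and 0 changed direction. The groups did not overlap in any of the 30, so only quantile normalization and the rescaling could have changed a direction. For the other alternatives the direction was fixed in advance. The calls lost were those of GSTU1, GSTU5, GSTU16, GSTU23 and GSTU26, and the call gained was that of GSTU3. With 2 replicates and no depth, small changes near these limits cannot be settled here. Members called higher numbered 22 to 25 over all alternatives. From a mean of 5 TPM the members called lower fell to 3 and the tau members called lower to 2, since fewer genes were tested. Over the omissions of 1 library, members called lower numbered 3 to 4 and tau members called lower 2 to 3. The change in the log2 ratio of summed tau to summed phi TPM was -0.79 to -0.60 when 1 library was left out and -0.68 with GSTF4, GSTF5 and GSTU15 added. Without GSTU19 and GSTF9, the most abundant member of each class over all libraries, it was 0.02, so the genes left showed no such contrast. GSTF9 holds that place through its level at 2 days, so its omission lowers the phi rise by the way it was chosen. Replicate numbers are shared between the groups, but nothing shows that they pair the libraries: the correlation of the replicate differences of both groups across genes was -0.0674. A replicate block cannot move the change in that ratio in this balanced layout, so its value of -0.70 is no check. The block moved no member count by over 1.5 times, and the call of GSTU23 was lost (limma adjusted p = 0.0817).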

Other observations

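The genes in this paragraph were singled out after their values were seen. DHAR1 (AT1G19570), a cytosolic dehydroascorbate reductase, went from 467.85 and 479.1 TPM to 2259.02 and 2440.93 TPM, and DHAR2 (AT1G75270) from 20.5 and 19.06 TPM to 77.42 and 80.22 TPM. The plastid lambda transferase GSTL2 (AT3G55040) went from 73.18 and 68.11 TPM to 28.78 and 29.57 TPM (log2 difference -1.25, limma adjusted p = 5.47e-05). GSH1 (AT4G23100), which encodes the plastid enzyme of the first step of glutathione synthesis, went from 180.38 and 185.93 TPM to 452.44 and 416.53 TPM. The mesophyll and photosynthesis markers fell in the same libraries, and their part in these values was not tested.

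Several xenobiotic response genes, also singled out after their values were seen, were higher in 2-day replicate 1 than in replicate 2. So were GSTU1 to GSTU4 and 59.6% of all tested genes. CYP81D11 (AT3G28740) stood at 1.84 and 0.45 TPM in the 2-day libraries. DTX1 (AT2G04040), a multidrug exporter gene, stood at 2.81 and 1.2 TPM there, and UGT74E2 (AT1G05680) at 2.86 and 1.35 TPM. OPR1 (AT1G76680), from the same list, was nearly even at 128.28 and 117.54 TPM. Of the TGA factors, AHBP-1B (AT5G06950, TGA2) stood at 12.1 and 12.72 TPM, TGA6 (AT3G12250) at 6.08 and 7.7 TPM and OBF5 (AT5G06960, TGA5) at 14.17 and 14.36 TPM. At time 0 CYP81D11 had stood at 1.46 and 2.36 TPM and UGT74E2 at 2.72 and 3.25 TPM, and neither was called. DTX1 had stood at 0.14 and 0.06 TPM and was called higher.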
